A study of Homo sapiens with 14 samples.

Results

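A set of 10 transcription factors of epithelial and luminal prostate cells, ELF3, EHF, SPDEF, GRHL1, GRHL2, OVOL1, OVOL2, KLF5, FOXA1 and BARX2, were followed by symbol through 2 RNA-seq tables. These 10 genes were found among the 24199 features of a DU145 table and among the 44591 genes of an LNCaP table. In DU145, a line of human prostate cancer cells, 3 shCON libraries, from cells with a non-target hairpin and labelled WT, were compared with 3 shPAX6 libraries, labelled PAX6 knockdown. Both groups were stable subclone lines made by lentiviral infection, and which PAX6 hairpin was sequenced is not given in the sources used here. In LNCaP, another line of human prostate cancer cells, with luminal features, 1 library of untreated WT cells was set beside 1 library of LNCaP-ENZ cells, which are enzalutamide resistant and had been grown with enzalutamide, a hormone therapy for this cancer, at 20 µM for 30 days. The 6 ATAC-seq samples were not used here. Nothing in the labels says that the DU145 replicates were separate cultures, so p-values measure the spread between these libraries, which may be technical.

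Epithelial identity is held by a small network of DNA-binding factors. Grainyhead-like factors (GRHL1, GRHL2) and OVO-like zinc fingers (OVOL1, OVOL2) keep junction genes active and counter ZEB and SNAI repressors, which bind E-box sequences in genes such as CDH1. ELF3, EHF and SPDEF belong to the ETS family and are restricted to epithelia, FOXA1 is a forkhead pioneer factor that opens chromatin in luminal cells, KLF5 is a Krüppel-like factor of proliferating epithelium, and BARX2 is a homeobox factor of developing epithelia.

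Promoter sequence from RefSeq (GRCh38.p14) was matched for 6 of the 10 members, in 8 windows. Whole windows were searched on both strands, from 250 bases before the start to a short stretch past it. The letters sought were CACCTG (the E-box of ZEB and SNAI factors), ACCGGTT (grainyhead), TGTTTAC (forkhead), CCGGAAG (ETS) and TTCACGC (core of the PAX6 paired domain site). Only the 250 bases before the start are printed. The 3 windows below are shown because each holds a match, in capitals, and because the genes gave different values: ELF3 fell in shPAX6 cells, FOXA1 was not called there, and EHF differed most between the LNCaP libraries. All are written 5′ to 3′ on the gene's own strand. ELF3 lies on the plus strand (chr1:202010337-202010586), FOXA1 on the minus strand (chr14:37595250-37595499) and the second EHF start on the plus strand (chr11:34632316-34632565).
ELF3: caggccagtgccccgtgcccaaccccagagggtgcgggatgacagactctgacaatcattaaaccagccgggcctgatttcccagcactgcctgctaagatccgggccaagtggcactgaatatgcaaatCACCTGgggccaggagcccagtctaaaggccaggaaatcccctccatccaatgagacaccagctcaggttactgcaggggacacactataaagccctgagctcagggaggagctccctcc
FOXA1: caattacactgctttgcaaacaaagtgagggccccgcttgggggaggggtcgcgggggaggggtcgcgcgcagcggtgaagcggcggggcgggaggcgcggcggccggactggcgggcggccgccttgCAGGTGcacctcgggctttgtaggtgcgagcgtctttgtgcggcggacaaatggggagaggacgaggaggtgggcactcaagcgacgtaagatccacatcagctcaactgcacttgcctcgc
EHF: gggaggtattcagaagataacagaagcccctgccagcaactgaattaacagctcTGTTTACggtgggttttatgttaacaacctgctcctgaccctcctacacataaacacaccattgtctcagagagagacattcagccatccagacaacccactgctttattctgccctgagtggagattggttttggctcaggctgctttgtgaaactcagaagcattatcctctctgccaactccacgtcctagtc
The ELF3 window holds CACCTG on the gene's strand, from -120 to -115 of the start. In the FOXA1 window the same E-box lies on the opposite strand, from -122 to -117, and so reads CAGGTG. The forkhead letters of the EHF window lie from -196 to -190. Of all 35116 promoter windows, searched over the same whole length, 20.6% hold the E-box and 3.42% the forkhead letters. The grainyhead (0.772%), ETS (10.3%) and PAX6 core (1.34%) letters had no match in the 8 member windows. These matches describe letters and do not show binding. OVOL1, OVOL2, GRHL2 and BARX2 had no entry.

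The cell lines were checked against their markers. Of the 4 epithelial markers EPCAM, CDH1, KRT8 and KRT18, 0 were at 0 in any of the 8 libraries. KLK3, TMPRSS2 and FOLH1, which mark luminal cells, had 48.6, 82.9 and 153 TPM in LNCaP and 34.1, 24.3 and 158 TPM in LNCaP-ENZ. In DU145, TMPRSS2 and FOLH1 were listed at 0 throughout and KLK3 reached at most 0.058 FPKM. Basal markers (KRT5, KRT14, TP63) were listed at 0 in all 6 DU145 libraries, and the 5 neuroendocrine markers summed to at most 0.495 FPKM there and 0.789 TPM in LNCaP. Markers of leukocytes, fibroblasts and endothelium summed to at most 0.922, 0.773 and 0.119 FPKM in any DU145 library, and to at most 0.956, 3.92 and 2.03 TPM in LNCaP. One DU145 library stood apart: shPAX6 replicate 1 had a summed value of 570790 FPKM and 17170 features above 0, against 448901 to 503696 FPKM and 17926 to 18301 features in the other 5, so fits without it are also given for PAX6, the tested members and the list genes with the largest differences. Depth in reads is unknown for DU145, and was 20468001 and 17945722 counts in LNCaP and LNCaP-ENZ.

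The targeted gene was low in DU145 from the start. Its level was 0.839, 1.23 and 1.57 FPKM in shCON and 0.0153, 0.274 and 0.0778 FPKM in shPAX6. These PAX6 values did not overlap, and a log2 difference of -2.69 missed the threshold of 0.05 narrowly (limma adjusted p = 0.0539). Of all 13574 tested features, 20.0% had groups apart with shPAX6 lower. It passed in 5 alternatives and did not in 9. It passed without shPAX6 replicate 1 (-2.31, limma adjusted p = 0.0220) or replicate 2 (limma adjusted p = 0.0105). It also passed with the GC correction (limma adjusted p = 0.0305), a pseudocount of 1 (limma adjusted p = 0.0389) and no trend (limma adjusted p = 0.0485). Among the 9 were the replicate block (limma adjusted p = 0.169) and the fits without shCON replicate 1 (0.191), shCON replicate 2 (0.288) or shPAX6 replicate 3 (0.220). PAX6 fell below the filter without shCON replicate 3 or with a mean of at least 1 FPKM required.

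In shPAX6 cells ELF3 and BARX2 fell, to 36.5% and 22.9% of their shCON mean, while FOXA1, KLF5 and GRHL1 did not pass the test. These were the 5 members with a mean of at least 0.5 FPKM, the level needed to enter the fit (limma on log2(FPKM + 0.1) across 13574 features, Benjamini-Hochberg adjustment). Of these 5, 2 were called lower and 0 higher, against 1.02% of all tested features called lower and 0.177% called higher. The median log2 fold change of the 5 was -0.10 and that of all tested features -0.12. EHF, SPDEF, GRHL2, OVOL1 and OVOL2 were below the filter.

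ELF3, an ETS factor of secretory and glandular epithelium (ENSG00000163435, chromosome 1 from 201979690 to 201986316, plus strand, GRCh37), had 10.6, 10.8 and 10.8 FPKM in shCON and 3.56, 3.90 and 4.27 FPKM in shPAX6. Every shPAX6 library lay below every shCON library, as in 20.0% of all tested features, and the shCON values were nearly the same. The means were 10.7 ± 0.0966 and 3.91 ± 0.359 FPKM (SD, n = 3 each), with a log2 fold change of -1.44 (SE 0.15, limma adjusted p = 0.0145). Without shPAX6 replicate 1 it was -1.37 (limma adjusted p = 0.00293). These are the coordinates of the LNCaP table, at which ELF3 does not overlap its antisense gene ELF3-AS1. The GENCODE annotation lifted to GRCh37 starts ELF3 at 201977073 and has the pair overlap over 2519 bases. Which gene model and strand setting gave the DU145 values is not given in the sources used here.

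BARX2, a homeobox factor (ENSG00000043039, chromosome 11 from 129245881 to 129322174, plus strand, GRCh37), had 3.07, 3.37 and 3.22 FPKM in shCON and 0.486, 0.940 and 0.783 FPKM in shPAX6. The groups were again fully apart with shPAX6 lower, as in 20.0% of all tested features. Their means were 3.22 ± 0.147 and 0.737 ± 0.231 FPKM (SD, n = 3 each), a log2 fold change of -2.03 (SE 0.27, limma adjusted p = 0.0250), and without shPAX6 replicate 1 it was -1.79 (limma adjusted p = 0.00467).

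Both calls needed most of the libraries. For ELF3 the limma adjusted p was 0.14, 0.178 and 0.179 when shCON replicate 1, 2 or 3 was left out, and 0.106 without shPAX6 replicate 3. For BARX2 it was 0.166, 0.192, 0.222 and 0.148 in the same fits, although the log2 fold changes stayed between -1.50 and -1.37 for ELF3 and between -2.20 and -1.79 for BARX2 over the 6 fits that left out a library.

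FOXA1 (chromosome 14 from 38058757 to 38064325, minus strand, GRCh37) had 13.7, 14.6 and 15.0 FPKM in shCON and 11.7, 19.7 and 17.2 FPKM in shPAX6. One shPAX6 library was below and the other two were above all shCON libraries. The log2 fold change was 0.13 (SE 0.21, limma adjusted p = 0.795), and 0.35 without shPAX6 replicate 1 (limma adjusted p = 0.131).

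KLF5 (chromosome 13 from 73629114 to 73651680, plus strand, GRCh37) had 12.1, 11.4 and 11.2 FPKM in shCON and 7.80, 15.7 and 12.5 FPKM in shPAX6, which again spread to both sides of the controls. Its log2 fold change was -0.0021 (SE 0.25, limma adjusted p = 0.997), and 0.28 without shPAX6 replicate 1 (limma adjusted p = 0.252). GRHL1 (chromosome 2 from 10091792 to 10142412, plus strand, GRCh37) had 2.29, 1.61 and 2.14 FPKM in shCON and 1.27, 3.08 and 1.60 FPKM in shPAX6, with overlapping groups, a log2 fold change of -0.10 (SE 0.35, limma adjusted p = 0.915) and a value of 0.15 without shPAX6 replicate 1 (limma adjusted p = 0.783). A p that misses the threshold does not show that these 3 genes were equal between the groups, and the sign of each changed between settings.

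The shPAX6 libraries ordered the uncalled members and BARX2 alike: replicate 1 was lowest and replicate 2 highest for FOXA1, KLF5, GRHL1 and BARX2. For ELF3 replicate 3 was highest. Replicate 1 was the lowest of the 3 shPAX6 libraries in 5 of 5 tested members, as it was in 57.9% of all tested features. Over the 6 libraries Pearson's r was 0.92 between KLF5 and FOXA1 and 0.98 between ELF3 and BARX2, and -0.20 between ELF3 and FOXA1. The points share library and scaling, and both ELF3 and BARX2 were lower in 1 group.

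**Figure D1:**
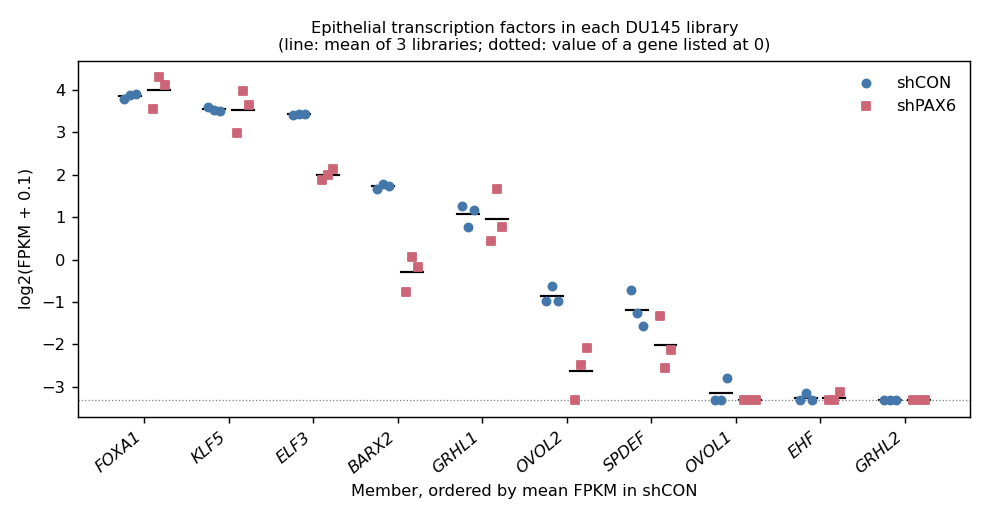
Level of each member in each DU145 library as log2(FPKM + 0.1), with 3 shCON libraries (circles) and 3 shPAX6 libraries (squares) per gene, black lines for the group means and a dotted line at the value of a gene listed at 0. ELF3, BARX2 and OVOL2 show groups that do not overlap, while the shPAX6 values of FOXA1, KLF5 and GRHL1 lie on both sides of the shCON values. Of all 13574 tested features, 20.0% had groups apart with shPAX6 lower.

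The 5 members below the filter were at or near 0 in DU145. OVOL2, an OVO-like repressor of mesenchymal genes, had 0.405, 0.547 and 0.407 FPKM in shCON and 0, 0.0789 and 0.135 FPKM in shPAX6. These groups did not overlap either, and the difference of the means of log2(FPKM + 0.1) was -1.77. Among the tested features, which leave OVOL2 out, 20.0% had groups apart with shPAX6 lower. A two-sided exact permutation test gave p = 0.10, the smallest that 3 against 3 allows. In the fit without a filter on low values OVOL2 had a limma adjusted p of 0.104. OVOL2, on the minus strand, runs from 18004796 to 18039832 on chromosome 20 in the LNCaP table, clear of SNX5 and MGME1. The lifted annotation places its downstream end at 17937623 and has it overlap both. These had 27.2 to 37.0 and 11.7 to 17.2 FPKM in DU145, and whether reads were shared was not tested.

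SPDEF, an ETS factor of luminal prostate and goblet cells, had 0.506, 0.318 and 0.239 FPKM in shCON and 0.296, 0.0706 and 0.128 FPKM in shPAX6, and the groups overlapped (exact permutation p = 0.20, two-sided). EHF was listed at 0 in 4 of the 6 libraries, with 0.0132 FPKM in shCON replicate 2 and 0.0145 FPKM in shPAX6 replicate 3. OVOL1 had 0.0434 FPKM in shCON replicate 3 and was listed at 0 in the other 5, and GRHL2 was listed at 0 in all 6. By contrast, 0 of the values of 10 housekeeping genes were 0 in these libraries.

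Ordered by mean FPKM, the shCON levels ran from FOXA1 (14.4) through KLF5 (11.6), ELF3 (10.7), BARX2 (3.22), GRHL1 (2.01), OVOL2 (0.453) and SPDEF (0.354) to OVOL1, EHF and GRHL2. Neighbours in this order did not overlap between libraries down to OVOL2, whose 3 values overlapped those of SPDEF. In shPAX6 the order was FOXA1 (16.2 ± 4.10), KLF5 (12.0 ± 3.97), ELF3 (3.91), GRHL1 (1.98 ± 0.965), BARX2 (0.737), SPDEF (0.165) and OVOL2 (0.0713). FOXA1 and KLF5 overlapped there, as did SPDEF and OVOL2, and BARX2 stood below GRHL1 in every library.

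In the LNCaP pair the question was which members differ in cells kept in enzalutamide. The labels and the table give 1 library per arm, although the study's methods speak of replicates for each cell line, and whether these columns pool replicates is not stated. With 1 library per arm there is no test, and the values compare these libraries, not the conditions. Each log2 ratio is of CPM + 0.1, with a 95% exact Clopper-Pearson interval that covers counting error only. The 2 members that differed most were EHF and SPDEF, ETS factors at or near 0 in DU145, and both were lower in LNCaP-ENZ. Of the 10 members, 1 was at least 2-fold lower and 0 at least 2-fold higher, against 9.57% and 1.84% of the 14767 genes expressed at 1 CPM or more on average. The share of members lower by that much was thus near the background.

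EHF (chromosome 11 from 34642588 to 34684835, plus strand, GRCh37) had 8607 counts in LNCaP and 3371 in LNCaP-ENZ, a level of 77.8 against 32.8 TPM. By CPM, EHF was 2.24-fold lower in LNCaP-ENZ, with a log2 ratio of -1.16 (-1.22 to -1.10). SPDEF (chromosome 6 from 34505579 to 34524110, minus strand, GRCh37) had 1605 and 764 counts, 42.8 and 21.9 TPM, and a log2 ratio of -0.88 (-1.01 to -0.76). The third ETS member did not share this: ELF3 had 3082 and 2752 counts, 48.4 and 46.4 TPM, and a log2 ratio of 0.026 (-0.048 to 0.10).

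FOXA1 was the most abundant member, with 9649 counts (146 TPM) in LNCaP and 7263 counts (118 TPM) in LNCaP-ENZ and a log2 ratio of -0.22 (-0.26 to -0.18). All expressed genes had a median of -0.15, and TMM factors brought FOXA1 to -0.074.

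KLF5 had 346 and 221 counts, 4.71 and 3.23 TPM, and a log2 ratio of -0.45 (-0.71 to -0.21). BARX2 had 226 and 144 counts, 6.52 and 4.47 TPM, and a log2 ratio of -0.46 (-0.77 to -0.15). These intervals lay below 0, but that of BARX2 reached the median of all expressed genes.

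The grainyhead and OVO factors had log2 ratios above 0. GRHL2 had 2544 and 2368 counts, 24.5 TPM in both libraries, and a log2 ratio of 0.086 (0.0049 to 0.17). GRHL1, with 275 and 251 counts and 3.89 and 3.82 TPM, had a log2 ratio of 0.058 (-0.19 to 0.31). OVOL1, with 258 and 248 counts and 4.35 and 4.50 TPM, had 0.13 (-0.12 to 0.39), and its antisense gene OVOL1-AS1 had 8 and 3 counts. OVOL2 stood highest, with 206 and 233 counts, 5.65 and 6.87 TPM, and 0.36 (0.09 to 0.64).

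The 10 log2 ratios had a median of -0.10, with 5 members below and 5 above 0. By the deposited TPM 7 were lower and 3 higher, since ELF3 and GRHL1 changed sign. Between library totals, edgeR's TMM factors and a median of expressed genes set to 0, the split stayed 5 to 5. In LNCaP, PAX6 had 11 counts and in LNCaP-ENZ 4, close to the floor of 3 counts (0.147 and 0.167 CPM).

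**Figure D2:**
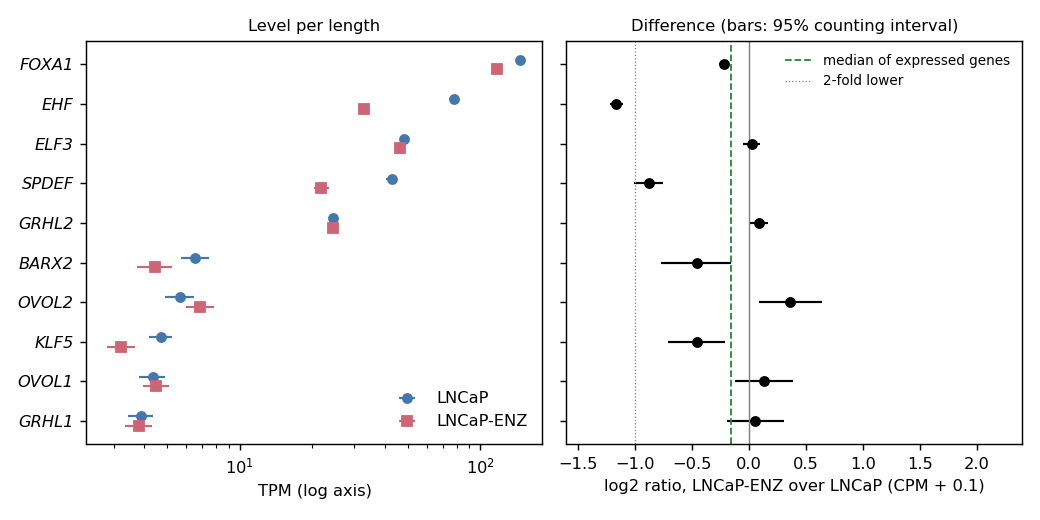
Level (TPM, log axis, left) and log2 ratio of LNCaP-ENZ over LNCaP (right) of each member, 1 library per arm, with bars for 95% counting intervals, a dashed line at the median of expressed genes (-0.15) and a dotted line at 2-fold lower. EHF (-1.16) and SPDEF (-0.88) lie farthest to the left and OVOL2 (0.36) farthest to the right.

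The lines also differed in which members they used. Because the tables were normalized separately, each gene was placed by its percentile among 18702 protein-coding genes present in both tables, within its own library, with no test. EHF was at percentile 96.8 in LNCaP and 91.8 in LNCaP-ENZ, and between 11.5 and 25.2 in the DU145 libraries. GRHL2 was at 87.9 and 88.7 in LNCaP and at most at 13.0 in DU145, where this is the rank of genes listed at 0. SPDEF was at 93.5 and 87.4 against 29.2 to 37.4.

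ELF3 held percentile 94.4 in both LNCaP libraries, 70.7 to 71.7 in shCON and 55.2 to 59.6 in shPAX6. BARX2 was at 66.1 and 63.7 in LNCaP, at 52.5 to 54.8 in shCON and at 39.9 to 41.5 in shPAX6. FOXA1 was at 98.5 and 98.1 in LNCaP and between 74.7 and 80.5 in DU145. The smallest gap was that of GRHL1, at 57.1 and 61.1 against 46.4 to 52.1.

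OVOL1 and OVOL2 were at 59.0 and 63.5 in LNCaP and at most at 26.7 and 38.1 in DU145. KLF5 was the exception in direction, at 60.3 and 58.8 in LNCaP and 70.3 to 77.1 in DU145. The other 9 members ranked higher in both LNCaP libraries than in any DU145 library. Within LNCaP by TPM, the order was FOXA1, EHF, ELF3, SPDEF, GRHL2, BARX2, OVOL2, KLF5, OVOL1 and GRHL1, and the counting intervals of neighbours overlapped from BARX2 downwards.

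**Figure D3:**
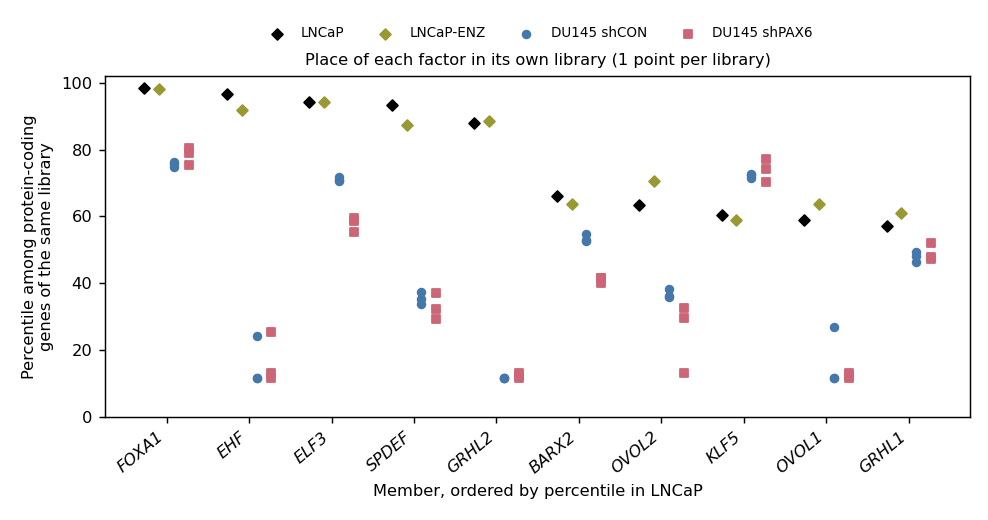
Percentile of each member's level among protein-coding genes of the same library, 1 point for each of the 2 LNCaP libraries, the 3 shCON and the 3 shPAX6 libraries. EHF, GRHL2 and SPDEF stand highest above DU145 in LNCaP, and KLF5 is higher in DU145 (70.3 to 77.1) than in LNCaP (60.3 and 58.8).

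Genes of epithelial junctions and the cell surface were read in the same fit, and whether these factors act on them was not tested. Of 30 epithelial junction and surface genes, 25 were tested in DU145, and 4 fell, 0 rose and 21 did not pass. All 25 had a log2 fold change below 0, as did 62.9% of all tested features, and their median was -0.72 against -0.12. The groups were apart, with shPAX6 lower, in 19 of the 25, against 20.0% of all tested features. The list was chosen with earlier results of these data known, and in bulk RNA fewer cells with a gene and less RNA per cell cannot be told apart.

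CDH1, E-cadherin of the adherens junction, had 6.27, 5.23 and 6.91 FPKM in shCON and 0.654, 1.56 and 1.57 FPKM in shPAX6, with no overlap. Its log2 fold change was -2.28 (SE 0.34, limma adjusted p = 0.0334). CDH3, P-cadherin, had means of 24.5 ± 4.97 and 10.6 ± 2.06 FPKM (SD, n = 3 each) and differed by -1.20 on the log2 scale (limma adjusted p = 0.0481). JUP, plakoglobin of junction plaques, had 25.4 ± 3.16 and 13.4 ± 0.532 FPKM and -0.91 (limma adjusted p = 0.0370), and TJP3, a tight junction scaffold, had 1.03 ± 0.0384 and 0.202 ± 0.113 FPKM and -1.97 (limma adjusted p = 0.0449). KRT8 and KRT18, keratins of simple epithelium, were not called, at -0.28 (limma adjusted p = 0.474) and 0.074 (limma adjusted p = 0.901) on the log2 scale.

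The count of 4 moved with single libraries: it was 0 without any 1 of the shCON libraries or without shPAX6 replicate 3, 12 without shPAX6 replicate 1 and 10 without shPAX6 replicate 2. With median centring of each library it was 1, and 23 of the 25 stayed below 0. With the GC correction it was 2 and the median of the 25 was -0.54. CDH1 kept its call there (limma adjusted p = 0.0282), and JUP (limma adjusted p = 0.0969), TJP3 (limma adjusted p = 0.0759) and CDH3 (limma adjusted p = 0.0679) did not. GC content and log2 fold change had a Spearman rho of -0.36 across features, which are not independent replicates. Without shPAX6 replicate 1 the log2 values were -1.90 for CDH1 (limma adjusted p = 0.00265), -1.03 for CDH3 (limma adjusted p = 0.0154), -0.90 for JUP (limma adjusted p = 0.0120) and -1.78 for TJP3 (limma adjusted p = 0.0239). RAB25, ESRP1, PRSS8, AP1M2 and MARVELD3, the 5 listed genes that were not tested, had shCON means between 0 and 0.456 FPKM.

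The other epithelial factors of the list gave no call. Of 15, 9 were tested, 8 had a log2 fold change below 0 and 0 passed the limma adjustment. An unadjusted limma p under 0.05 and groups that did not overlap, with shPAX6 lower, were seen in 5. Of all 13574 tested features, 2480 had an unadjusted p under 0.05, 20.0% had groups apart with shPAX6 lower and 62.9% were below 0. Large differences were seen in TFAP2C, an AP-2 factor, from 4.89 ± 0.236 to 2.46 ± 0.604 FPKM (SD, n = 3 each; -0.99, limma adjusted p = 0.0810), and in TBX3, a T-box factor (-0.94, limma adjusted p = 0.231). Leaving out shPAX6 replicate 1 gave -0.83 for TFAP2C, which then passed (limma adjusted p = 0.0379), and -0.62 for TBX3 (limma adjusted p = 0.219). Of 16 paralogs of the members, 10 were tested and 0 passed the limma adjustment, with 0 at an unadjusted p under 0.05 and a median of -0.10. Of these only TFCP2L1, a grainyhead relative, had groups that did not overlap, at -0.56 (limma adjusted p = 0.429).

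Of 11 mesenchymal genes, 5 were tested in DU145 and 0 passed the limma adjustment. An unadjusted limma p under 0.05 was seen in 2 of the 5, against 2480 of all 13574 tested features. VIM, the intermediate filament vimentin, had 971, 1102 and 988 FPKM in shCON and 1685, 1306 and 1557 FPKM in shPAX6. The groups did not overlap and differed by 0.56 on the log2 scale (limma adjusted p = 0.143). SNAI1, an E-box repressor, stood the other way with groups also apart, at 4.84 ± 0.591 and 3.27 ± 0.412 FPKM (SD, n = 3 each, log2 fold change -0.55, limma adjusted p = 0.199). Of all 13574 tested features, 910 had groups apart with shPAX6 higher and 2717 with shPAX6 lower. ZEB1 had 1.23 and 1.67 FPKM with overlapping groups. Leaving out shPAX6 replicate 1 gave 0.48 for VIM (limma adjusted p = 0.0844) and -0.48 for SNAI1 (limma adjusted p = 0.143).

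**Figure D4:**
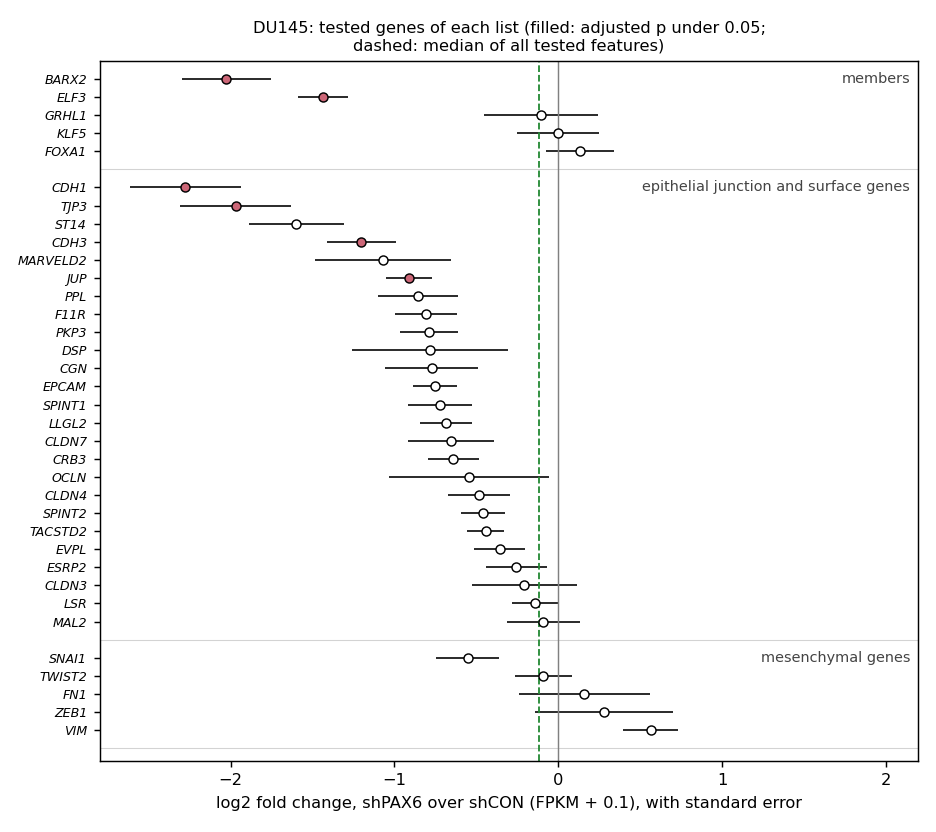
Log2 fold change of shPAX6 over shCON in DU145, with its limma standard error, for the tested genes of 3 lists, with filled points for an adjusted p under 0.05 and a dashed line at the median of all 13574 tested features (-0.12). BARX2 and ELF3 are filled among the members, CDH1, TJP3, CDH3 and JUP among the epithelial junction and surface genes, and all 25 of the latter lie left of 0.

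The same lists were read in LNCaP. All 10 paralogs expressed at 1 CPM or more were lower in LNCaP-ENZ, with a median log2 ratio of -0.63 against -0.15 for all expressed genes, of which 62.3% were below 0. With the median of expressed genes set to 0, 9 of the 10 stayed lower. KLF4, a Krüppel-like factor of differentiated epithelium, had 318 and 106 counts (-1.38, -1.73 to -1.07), KLF6 had 248 and 117 counts (-0.88, -1.22 to -0.57) and ELF1 549 and 302 counts (-0.67, -0.88 to -0.47). GRHL3, the third grainyhead-like gene, had 58 and 12 counts (-1.93, -3.12 to -1.17), beside log2 ratios of 0.058 for GRHL1 and 0.086 for GRHL2.

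Among the other epithelial factors 5 of 11 were lower and 6 higher. TFAP2C had 715 and 467 counts (-0.42, -0.60 to -0.25) and TBX3 11048 and 7871 counts (-0.30, -0.34 to -0.26). On the other side, SOX9 had 202 and 293 counts (0.72, 0.46 to 0.99) and PITX1 742 and 1030 counts (0.66, 0.53 to 0.80). The epithelial junction and surface genes had a median of -0.11, with 19 of 28 lower, close to the share of all expressed genes. With the median of expressed genes set to 0, 13 of the 28 were lower and their median was 0.042. PPL, periplakin of desmosomes, was the 1 gene at least 2-fold lower, with 192 and 67 counts (-1.31, -1.75 to -0.92), followed by MAL2 (-0.67, -0.77 to -0.58) and DSP, desmoplakin (-0.60, -0.66 to -0.55). RAB25, a small GTPase of epithelial trafficking that was listed at 0 in DU145, stood highest with 1825 and 2484 counts (0.63, 0.55 to 0.72), then PKP3 (0.54, 0.43 to 0.66) and CLDN7 (0.39, 0.32 to 0.47). CDH1 had 14739 and 10115 counts (-0.35, -0.39 to -0.32).

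Of the mesenchymal genes SNAI2, an E-box repressor, had 73 counts in LNCaP and 1 in LNCaP-ENZ, a count under the floor of 3 (log2 ratio -4.56, -11.3 to -3.48). FN1, fibronectin, had 11349 and 19887 counts (1.00, 0.97 to 1.03), while VIM had 1394 and 938 counts (-0.38, -0.50 to -0.26). SNAI1 had 313 and 318 counts (0.21, -0.017 to 0.44), an interval that held 0 but lay above the median of all expressed genes (-0.15).

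Last, the tested features whose values followed ELF3 and BARX2 most closely over the 6 DU145 libraries were listed. For ELF3 these were CYB561 (Pearson r 0.9987), IFIT1 (0.9984) and NCS1 (0.9971). CYB561 had 19.7, 21.7 and 20.9 FPKM in shCON and 4.61, 5.47 and 5.61 FPKM in shPAX6, -1.97 on the log2 scale (limma adjusted p = 0.00325). For BARX2 they were SIK1 (r 0.9983), TGIF2 (0.9978) and CPVL (0.9975), of which SIK1 had 7.23, 7.81 and 7.85 FPKM in shCON and 1.21, 2.41 and 2.14 FPKM in shPAX6 (-1.99, limma adjusted p = 0.0250). All 6 had shPAX6 values below every shCON value, which follows from choosing them by likeness to ELF3 and BARX2, whose groups were apart. Of all tested features, 20.0% had groups apart with shPAX6 lower. Each r rests on 2 groups of 3 libraries that share their scaling.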

How the data were processed

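RNA-seq of 8 libraries was analysed. Per the study's methods the authors aligned reads to GRCh37 with HISAT2 and quantified transcripts with StringTie. For LNCaP the authors deposited raw counts, whole numbers per gene, and TPM, which equal count over gene length, rescaled to one sum per library. The deposited DU145 values do not name their unit and were treated as FPKM, since they are not whole and StringTie gives FPKM. Low values of 359 features showed no shared step (at most 2.51% of ratios in one bin), so no count test was run, although the study used DESeq2. Both tables hold 0 further columns of per-sample values and none of the authors' comparisons.

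DU145 values were tested with limma 3.58.1 (R 4.3.3, lmFit and eBayes with an intensity trend, two-sided) after adding 0.1 FPKM and taking log2. Features averaging 0.5 FPKM or more entered, and an adjusted p (Benjamini-Hochberg) under 0.05 was called. The pseudocount understates changes of low genes. Members below the filter were compared with an exact permutation test, chosen after seeing the data. LNCaP counts were divided by each library's total, edgeR 4.0.16 gave TMM factors, and TPM intervals are exact Poisson. The limma fit was tested on simulated data.

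Groups came from the sample labels. Alternatives were pseudocounts of 1 and 0.01, a mean of at least 1 FPKM, no filter, quantile normalization, median centring, no trend, the replicate block, a GC correction per library (loess, span 0.5, degree 2, library mean kept, 12009 features), and each library left out. In LNCaP they were the TMM factors, the median set to 0, the deposited TPM, and totals without the 10 most counted genes.

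The members and gene lists were chosen with earlier results of these data known. Genes named are the 10 members, PAX6, list genes past the adjustment in DU145, otherwise up to 3 of the largest changes per direction and list with groups apart (in LNCaP, averaging 5 CPM or more), and the 3 features most like each called member. GRHL3, SNAI2, KRT8, KRT18, ZEB1 and, in LNCaP, CDH1 were named after their values were seen. Some genes that the rule covers are not reported here, though counts over a list include them.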

Additional observations from a re-analysis of the deposited data

How the results depend on the processing

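ELF3 and BARX2 were below 0 in 16 of 16 alternatives each, from -1.50 to -1.26 and from -2.20 to -1.29. Both kept their limma call in 10 and lost it with the replicate block, the block with the GC correction, and 4 of the 6 fits that left out a library. Deviations of same-numbered libraries correlated at -0.17, -0.37 and 0.052, and the numbers were not taken as pairs. With the replicate block, limma called 0 features (1568 at an unadjusted p under 0.05) and 0 members, where 2 of 5 had an unadjusted p under 0.05, and with the block and the GC correction again 0 and 0 (1352 unadjusted). All tested features called numbered 163 (24 higher, 139 lower), 108 with no filter, 100 with median centring (28 higher, 72 lower) and 0 to 924 with a library left out. Quantile normalization gave 74 higher and 162 lower, and the GC correction 40 higher and 98 lower. With a library left out, 0 to 2 members were called. The members' median was 0.10 with quantile normalization, 0.071 with median centring, -0.23 with the GC correction with or without the block, and -0.46 to 0.15 with a library left out. Quantile normalization and median centring moved the median of all features from -0.12 to 0.014 and 0.058. The LNCaP members' median of -0.10 was 0.049 with TMM factors, 0.057 with the median set to 0 and -0.18 by the deposited TPM. The cause of these differences was not tested. Unknown depth in DU145 and 1 library per LNCaP arm limit what can be shown for members near 0.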
